A study of Mus musculus with 9 samples.

Results

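The genes described here are 9 mouse genes of complement, the acute-phase response and innate defence: C1ra, C4b, C3, Cfb, Serping1, Saa3, Lcn2, Hp and Nos2. They were chosen by name, with earlier results of these data known. Matching was by symbol to the Entrez gene IDs of the deposited table, in which all 9 of 9 were found among 28059 IDs. Expression was measured by RNA sequencing in YAMC, a conditionally immortalized line otherwise known as young adult mouse colon cells, which the labels place in the small intestine. The 3 groups of 3 libraries each were the parental line (labelled wildtype) and 2 lines labelled Cdk8 -/-, clone 1 and clone 19, made with CRISPR; all were grown at 32 °C and taken in logarithmic growth. CDK8 is the kinase of the Mediator kinase module, and the comparison asks which transcripts differ when its gene is knocked out. Each knockout line is 1 clone and no clone with intact Cdk8 was analysed here, so loss of Cdk8 and isolation of a clone cannot be told apart in a comparison with the parental line. The labels do not say that replicates were separate cultures, so p-values measure the spread between these libraries, which may be technical.

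Complement is a cascade of plasma and tissue proteins that tags targets for removal. The classical pathway starts when C1q recruits the proteases C1r and C1s, which cleave C4 and C2 to form a convertase for C3, and the alternative pathway builds a second C3 convertase with factor B. C1 inhibitor and other regulators hold these steps back. Acute-phase proteins such as serum amyloid A, lipocalin 2 and haptoglobin are made in quantity during inflammation, chiefly by the liver but also by epithelia and mesothelia, under IL-6, IL-1 and NF-kB signals.

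The table holds RPKM, reads per kilobase of gene and per megaread of the library. Depth, estimated from the steps between low values, ran from 23.2 to 44.2 megareads a library, and 17974 to 18907 IDs had a value above 0. Cdk8 RNA stood at 17.6 ± 0.125 RPKM (mean ± SD of 3 libraries, as throughout) in the parental line, 11 ± 0.658 for clone 1 and 10.4 ± 0.157 for clone 19, so it was lower but not absent in each (adjusted p = 7.6e-08 and 3.5e-08, limma). Of 11 markers of intestinal epithelium, 8 were under 1 RPKM in every library and Cdx2 was at 0 throughout, and their sum was 517 to 531 RPKM in parental libraries, 814 to 856 for clone 1 and 787 to 793 for clone 19. Nearly all of that sum came from Krt8 and Krt18, keratins of simple epithelia in general, at means of 130 and 392 RPKM in parental cells, 224 and 614 for clone 1 and 206 and 581 for clone 19. Both were called higher in each clone. The other tested marker, Cdh1 (E-cadherin), had means of 0.549, 0.521 and 1.25 RPKM in parental, clone 1 and clone 19. Only its clone 19 libraries reached 1 RPKM. It was called higher in clone 19 (0.74, adjusted p = 7.2e-05, limma) and not called in clone 1 (-0.04, adjusted p = 0.74, limma). By contrast, all 10 mesothelial markers were tested, and their summed level was 1170 RPKM in each parental library, 2090 to 2140 in clone 1 and 2170 to 2180 in clone 19. Upk3b and Upk1b had the highest means, 355 and 363 RPKM in parental cells. Clone 1 had 8 of the 10 higher, 1 lower and 1 not called, and clone 19 had 9 higher and 1 lower. The lower one was Msln (mesothelin) in both, at 111, 82.6 and 101 RPKM in parental, clone 1 and clone 19. Of all 12568 tested genes, 39.8% were higher and 32.6% lower in clone 1, and 36.7% and 32.3% in clone 19. Of 8 fibroblast markers 7 were tested, of which clone 1 had 3 higher and 4 lower and clone 19 had 2 higher and 5 lower. Their sum was 633 to 672 RPKM in parental libraries, 569 to 574 for clone 1 and 487 to 507 for clone 19, with Col1a1 (a chain of collagen I) going from 375 to 195 and 151 RPKM and Dcn (decorin) from 47.2 to 84.5 and 105 RPKM. Of 16 myeloid markers 15, and of 11 hepatocyte markers 10, were under 1 RPKM in every library, the myeloid sum was 3.92 to 4.30 RPKM in parental cells, 3.46 to 3.89 in clone 1 and 3.52 to 4.79 in clone 19, and Ptprc (CD45) was at most 0.006 RPKM. Most of the myeloid sum was Cd68, at means of 2.62, 3.12 and 3.56 RPKM in parental, clone 1 and clone 19. Cd68 was called higher in clone 19 (adjusted p = 0.005, limma) and not called in clone 1 (adjusted p = 0.062, limma). Csf1r, under 1 RPKM in every library, went the other way, from 0.933 to 0.210 and 0.166 RPKM. The hepatocyte sum was 0.332 to 0.947 RPKM in parental cells, 0.971 to 1.68 for clone 1 and 0.763 to 1.12 for clone 19. In bulk RNA, fewer cells of a type and less RNA per cell cannot be told apart, and the part of these marker differences in the results that follow was not tested.

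Saa3 and C3 rose in clone 19, C3 rose slightly and Saa3 did not pass the test in clone 1, and Serping1, Nos2, C4b, Cfb and C1ra fell in both clones. A gene was tested when it reached 1 RPKM in at least 3 of the 9 libraries, and called at an adjusted p under 0.05 in limma on log2(RPKM + 0.5), a scale that understates changes of low genes. Of the 9 genes, 7 were tested, and Lcn2 and Hp were below that level. A gene high in 1 group only could pass this filter through that group, as Nos2 did through its parental libraries. In clone 1, 1 of the 7 rose and 5 fell, where 39.8% of all 12568 tested genes rose, 32.6% fell and 72.4% were called either way. In clone 19, 2 rose and 5 fell, where 36.7% of tested genes rose, 32.3% fell and 69.0% were called. Between the clones, 6 of the 7 were higher in clone 19 than in clone 1 and 0 were lower, where 18.5% of tested genes were higher, 24.5% lower and 43.0% called. Nos2 was the gene that did not pass. Median log2 differences of the 7 were -0.81, -0.42 and 0.39 in these 3 comparisons, against 0.03, 0.02 and -0.02 over all tested genes. The comparisons with the parental line share its 3 libraries, so their likeness is no independent evidence. The 9 genes were chosen with earlier results of these data known, so these counts and medians describe them and carry no test.

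**Figure D1:**
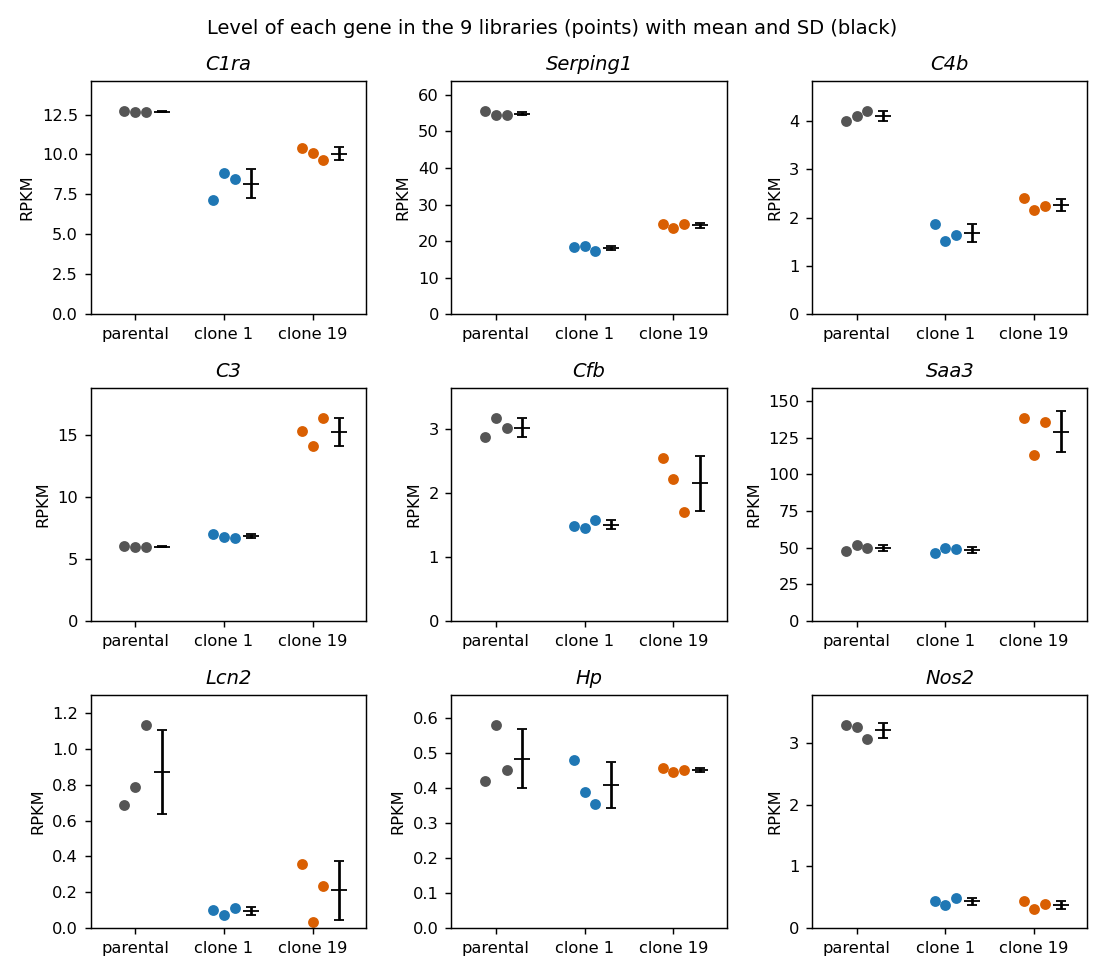
RPKM of each of the 9 genes in the 3 parental, 3 clone 1 and 3 clone 19 libraries, 1 panel a gene with its own axis from 0; points are libraries and black bars the mean and SD. Saa3 and C3 stand higher in clone 19, Serping1, C4b and Nos2 are lower in both clones, and Hp overlaps in all groups.

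C1ra (Entrez 50909), which encodes the protease C1r of the first complement complex, measured 12.7 RPKM in each of the 3 parental libraries. It measured 7.17, 8.87 and 8.48 RPKM for clone 1, with 10.4, 10.1 and 9.63 for clone 19. The 3 groups did not overlap, with clone 19 between the others. The log2 difference was -0.61 ± 0.06 (SE) in clone 1 and -0.32 ± 0.06 in clone 19 (adjusted p = 6.4e-06 and 0.00094, limma), and the clones differed by 0.29 (adjusted p = 0.0045, limma). C1ra has a near copy, C1rb, which shares 48.0% of the stretches of 50 bases of the C1ra transcript. C1rb was listed at 0.0147 to 0.0977 RPKM, and how reads common to both were counted is not given in the sources used here, so the C1ra level is uncertain. C1s1, the gene of the partner protease C1s, stood at 62.7 ± 1.67 RPKM in parental cells, 33.0 ± 0.870 in clone 1 and 57.3 ± 3.17 in clone 19. It fell by 0.91 on the log2 scale in clone 1 and by 0.13 in clone 19 (adjusted p = 3.9e-09 and 0.011, limma), a difference of 0.79 between the clones (adjusted p = 2.1e-07, limma). Of its transcript, 24.3% is shared with the paralog C1s2.

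Of 18 genes of recognition and initiation, C1ra and C1s1 included, 6 were tested. In each clone 5 fell and 0 rose, with 1 not called (medians -0.63 and -0.29). Of all tested genes, 32.6% fell and 39.8% rose in clone 1, and 32.3% and 36.7% in clone 19. C1qa and C1qc, subunits of C1q, were listed at 0 in every library. Colec12, a scavenger receptor of the collectin family, fell from 7.85 to 3.55 and 3.24 RPKM (-1.05 and -1.16). Ptx3, the long pentraxin that binds C1q, fell from 72.8 to 46.1 and 43.9 RPKM (-0.65 and -0.72), and Masp2, a protease of the lectin pathway, from 4.55 to 3.26 and 3.75 RPKM (-0.43 and -0.25). C1rl, a C1r-like protease, gave -0.08 and 0.00 (adjusted p = 0.36 and 0.97, limma).

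C4b (Entrez 12268), the C4 component cleaved by C1s, measured 4.0, 4.1 and 4.2 RPKM in parental cells. It measured 1.88, 1.52 and 1.65 RPKM for clone 1, with 2.40, 2.16 and 2.23 for clone 19. Every library of a clone was below every parental one, and the clones did not overlap. The fall was -1.08 ± 0.07 in clone 1 and -0.74 ± 0.07 in clone 19 (adjusted p = 8.9e-08 and 2.3e-06, limma). C4a, the neighbouring copy, shares 35.2% of the 50-base stretches of the C4b transcript and fell too, from 1.46 to 0.547 and 0.833 RPKM (-0.90 and -0.56), so how the fall divides between the copies is uncertain. Only the parental libraries of C4a reached 1 RPKM, so it was tested through the group where it was high.

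Cfb (Entrez 14962), factor B of the alternative pathway, measured 2.88, 3.17 and 3.02 RPKM in parental libraries. Its values were 1.49, 1.45 and 1.59 RPKM for clone 1, with 2.55, 2.21 and 1.70 for clone 19. The clone 19 libraries spread most, yet lay below all parental and above all clone 1 libraries. Cfb fell by 0.81 (SE 0.10) on the log2 scale in clone 1 and by 0.42 in clone 19 (adjusted p = 2.7e-05 and 0.0035, limma). Of its transcript, 81.4% is shared with Gm20547, an annotated gene that also covers 58.0% of the neighbouring C2, so reads of Cfb and C2 may have been assigned in more than 1 way. C2, the partner of C4 in the classical convertase, fell further in clone 1 than any of the 7 tested members: it measured 10.9, 10.6 and 9.82 RPKM in parental cells, 1.25, 1.35 and 1.29 in clone 1 and 5.11, 4.65 and 5.17 in clone 19. The mean was 8.05-fold lower in clone 1 and 2.1-fold lower in clone 19 (log2 difference -2.61 and -1.0, adjusted p = 3.9e-11 and 4.5e-08, limma), and the clones differed by 1.61 (adjusted p = 6.3e-08, limma).

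C4b, C4a, Cfb and C2 lie together among the class III genes of the mouse major histocompatibility complex, and the other genes of that stretch were counted beside them. Among the 18 other tested genes in a window of 29 consecutive entries around C4b and Cfb in gene order, 16 fell and 0 rose in clone 1 (median -0.34), where 32.6% of all tested genes fell and 39.8% rose. In clone 19, 9 of the 18 fell and 2 rose (median -0.13), where 32.3% of all tested genes fell and 36.7% rose. Between the clones, 12 of the 18 were higher in clone 19 and 0 lower (median 0.25), where 18.5% and 24.5% of all tested genes were. The gene listed next before C4b, Tnxb (tenascin X), measured 0.409, 0.108 and 0.203 RPKM, and the next after it, Cyp21a1 (steroid 21-hydroxylase), 0.0271, 0.0108 and 0.0602 RPKM in parental, clone 1 and clone 19, both under the level for testing. Nelfe, a subunit of the negative elongation factor and the neighbour before Cfb, fell in clone 1 (-0.20) and rose in clone 19 (0.10). When each library's median shift over the 50 closest tested genes was subtracted, C4b was still below parental in each clone (-0.74 and -0.63, adjusted p = 4.5e-06 and 1.9e-05, limma), as did Cfb (-0.46 and -0.32, adjusted p = 0.0015 and 0.016, limma). The difference between clones was then no longer called for C4b (0.11) or Cfb (0.15), each at an adjusted p = 0.28 in limma.

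**Figure D2:**
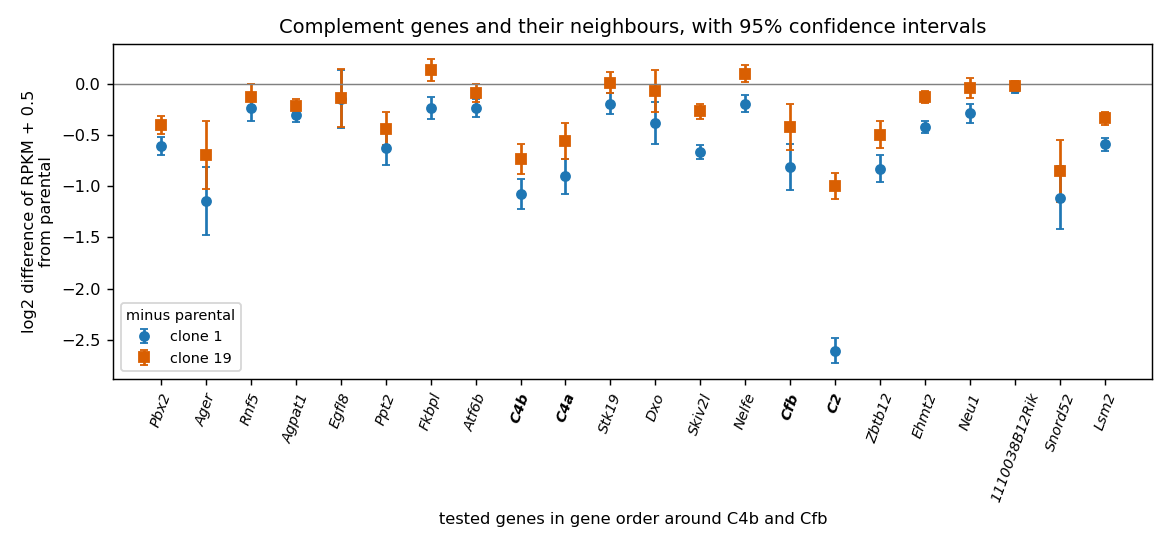
Log2 difference from parental (RPKM + 0.5) of the tested genes around C4b and Cfb, in gene order, for clone 1 (circles) and clone 19 (squares); bars are 95% confidence intervals. C2 in clone 1 is lowest at -2.61, clone 19 sits above clone 1 at C4b, C4a, Cfb and C2, and most neighbours of clone 1 lie below 0.

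C3 (Entrez 12266), on which all complement pathways converge, measured 6.03, 5.98 and 6.0 RPKM in parental libraries. It measured 7.05, 6.75 and 6.73 RPKM for clone 1, with 15.4, 14.1 and 16.4 for clone 19. Clone 19 was far above both other groups, while clone 1 lay just above the parental range. C3 rose by 0.18 ± 0.05 on the log2 scale in clone 1 and by 1.28 ± 0.05 in clone 19 (adjusted p = 0.0078 and 2.3e-09, limma), a mean 1.14-fold and 2.54-fold. The difference between the clones was 1.10 (95% confidence interval 0.99 to 1.21, adjusted p = 1.5e-07, limma). Subtraction of its 50 neighbours gave 0.49 for clone 1 and 1.44 for clone 19.

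Saa3 (Entrez 20210), serum amyloid A3, the form made outside the liver in mice, was the most abundant of the 9 genes in both clones. Its values were 47.5, 51.6 and 49.8 RPKM in parental cells, 46.3, 49.7 and 49.2 RPKM for clone 1, with 138, 113 and 136 for clone 19. Parental and clone 1 libraries overlapped, and the clone 19 libraries were all above them. In clone 19 the mean was 2.6-fold the parental one (log2 difference 1.36 ± 0.06, adjusted p = 1.2e-08, limma). In clone 1 the difference was -0.04 (95% confidence interval -0.18 to 0.11, adjusted p = 0.63, limma). The clones differed by 1.40 (adjusted p = 1.8e-07, limma).

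Promoter sequences (RefSeq, GRCm38.p6, 250 bases before to 50 after the annotated start) were given for 4 of the 9 genes: Saa3, C3, C1ra and Lcn2. Those of Saa3 and C3 are shown because these genes rose together in clone 19, and that of C1ra because it fell in both clones. Each is written 5′ to 3′ on the gene's strand, Saa3 from chr7:46715627-46715926 (minus strand), C3 from chr17:57228087-57228386 (minus strand) and C1ra from chr6:124512371-124512670 (plus strand). Capitals mark matches on either strand to TTNNGNAA, a short form of the motif bound by C/EBP factors.
Saa3: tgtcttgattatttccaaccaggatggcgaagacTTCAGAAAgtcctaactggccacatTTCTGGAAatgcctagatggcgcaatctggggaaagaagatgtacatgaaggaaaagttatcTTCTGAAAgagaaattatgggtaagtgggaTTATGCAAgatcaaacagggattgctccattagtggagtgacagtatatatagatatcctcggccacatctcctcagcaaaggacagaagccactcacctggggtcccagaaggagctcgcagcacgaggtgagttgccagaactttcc
C3: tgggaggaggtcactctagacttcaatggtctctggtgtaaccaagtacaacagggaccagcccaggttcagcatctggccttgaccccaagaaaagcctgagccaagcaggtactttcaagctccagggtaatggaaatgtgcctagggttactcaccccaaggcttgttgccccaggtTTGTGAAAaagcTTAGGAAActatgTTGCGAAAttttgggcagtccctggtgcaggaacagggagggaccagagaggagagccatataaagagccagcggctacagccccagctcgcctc
C1ra: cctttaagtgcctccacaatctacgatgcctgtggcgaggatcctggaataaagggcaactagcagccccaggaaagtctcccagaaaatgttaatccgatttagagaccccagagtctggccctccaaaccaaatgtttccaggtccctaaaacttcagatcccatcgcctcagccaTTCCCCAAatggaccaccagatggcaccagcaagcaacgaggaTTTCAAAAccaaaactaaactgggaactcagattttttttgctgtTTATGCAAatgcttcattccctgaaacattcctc
Saa3 held 4 such matches, C3 held 3, C1ra held 3 and Lcn2 held 1. Among all 32851 promoters of the same length, 40.7% held at least 1 match and 3.60% held 3 or more. The motif of interferon regulatory factors, searched on both strands and held by 3.44% of promoters, was matched in Saa3 alone of the 4 windows, by GAAAGAGAAA beginning 125 bases before the start, which overlaps a C/EBP match. C3 also held TATAAA, the letters of a TATA box (13.6% of promoters), but beginning after the annotated start, at base 15. C1ra held TTCNNNGAA, a short form of the STAT motif (8.3% of promoters), beginning after the start at base 33. TGANTCA, the AP-1 motif, was in none of the 4 windows (7.81% of promoters). The consensus of the kappa-B site, bound by NF-kB, had no match on either strand in the 4 windows, where 8.46% of promoters held one. A match is a run of letters and not a measured binding site, and genes that rose and one that fell both held C/EBP matches.

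Serping1 (Entrez 12258) encodes C1 inhibitor, the serpin that inactivates C1r, C1s and the MASP proteases. It was the most abundant of the 9 in parental cells, at 55.4, 54.5 and 54.6 RPKM. It measured 18.3, 18.7 and 17.4 RPKM for clone 1, with 24.6, 23.6 and 24.7 for clone 19. All libraries of both clones were below the parental ones, and clone 1 was below clone 19. The mean was 3.03-fold lower in clone 1 and 2.26-fold lower in clone 19 (log2 difference -1.57 ± 0.03 and -1.16 ± 0.03, adjusted p = 2.3e-11 and 1.7e-10, limma), and the clones differed by 0.41 (adjusted p = 4.1e-06, limma). No stretch of 50 bases of its transcript occurs in another annotated gene, and the same holds for C3, Lcn2, Hp and Nos2.

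The other regulators moved in several directions. Of 18 listed, Serping1 included, 5 were tested. In clone 1, 2 rose, 1 fell and 2 were not called (median 0.02), and in clone 19, 2 rose, 2 fell and 1 was not called (median 0.14). Over all tested genes the shares were 39.8% higher and 32.6% lower in clone 1, and 36.7% and 32.3% in clone 19. Clu (clusterin, a chaperone that also blocks the terminal complex) rose from 2.13 to 3.34 RPKM in clone 1 and 7.81 RPKM in clone 19 (0.54 and 1.66), with a difference of 1.12 between the clones (adjusted p = 5.4e-07, limma). Cr1l, or Crry, a membrane regulator of C3 in mice, was 14.5, 14.7 and 11.7 RPKM, a fall in clone 19 (-0.29, adjusted p = 0.00048, limma) and no call in clone 1 (0.02, adjusted p = 0.75, limma). Cd55 (decay-accelerating factor) gave -0.13 and 0.14 (adjusted p = 0.33 and 0.28, limma). Cfi, the protease factor I, and Cd59a, which blocks the terminal complex, were at most 0.0512 and 0.0165 RPKM in any library. Of 14 convertase and terminal components, C3, C4b and Cfb included, 6 were tested. In clone 1, 1 rose and 5 fell (median -0.86), and in clone 19, 1 rose, 4 fell and 1 was not called (median -0.49). The shares over all tested genes are those just given for the regulators. C4b, C4a, Cfb and C2, of the stretch and shared sequence described above, fell in both clones. Cfp gave -0.30 in clone 1 and -0.19 in clone 19 (adjusted p = 0.036 and 0.16, limma). The terminal genes C8a and C8b were listed at 0 in every library. Of 10 receptors 1 was tested, C1qbp, a mostly mitochondrial protein that binds C1q (0.13 and 0.10, called in both). C3ar1, the receptor for the C3a peptide, was 1.19, 0.930 and 1.03 RPKM in parental cells and 0.314 to 0.370 RPKM in the clones, below the level for testing.

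**Figure D3:**
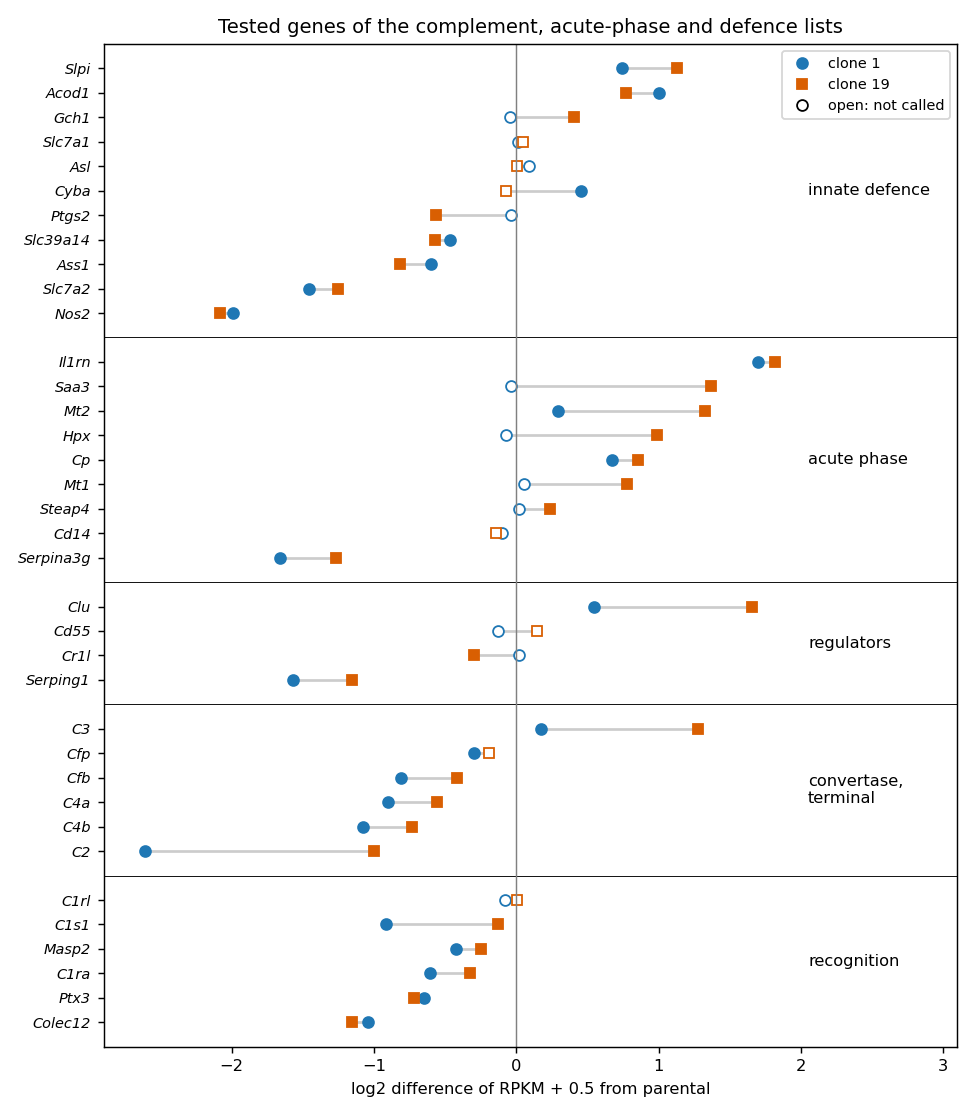
Log2 difference from parental (RPKM + 0.5) for tested genes of 5 lists (1 not shown), clone 1 as circles and clone 19 as squares; filled symbols were called at an adjusted p under 0.05, open ones were not, and Ptx3, on 2 lists, is drawn once. C2, Saa3, C3, Clu, Mt2 and Hpx have clone 19 well to the right of clone 1, with both clones left of 0 for C2. Nos2 and Slc7a2 have both clones together at the left.

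Lcn2 (Entrez 16819), lipocalin 2, which withholds iron by binding bacterial siderophores, was low throughout. It measured 0.689, 0.788 and 1.13 RPKM in parental libraries, 0.101, 0.0718 and 0.112 RPKM for clone 1, with 0.359, 0.0351 and 0.236 for clone 19. The steps of its values correspond to 26, 19 and 32 reads in parental libraries, 2, 2 and 3 in clone 1, and 9, 1 and 5 in clone 19. All parental libraries were above those of the clones, and the clones overlapped. With no filter on low values, Lcn2 fell by 1.19 for clone 1 (adjusted p = 0.00039, limma) and by 0.96 for clone 19 (adjusted p = 0.0016, limma), and the clones did not differ beyond their spread (0.23, adjusted p = 0.41, limma). Slc22a17, a membrane receptor for lipocalin 2, was listed at 0.154 to 0.158 RPKM in parental cells and at most 0.0891 in the clones.

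Hp (Entrez 15439), haptoglobin, which binds free hemoglobin, measured 0.420, 0.579 and 0.450 RPKM in parental cells, 0.480, 0.387 and 0.355 in clone 1, and 0.456, 0.446 and 0.450 in clone 19. These values correspond to between 15 and 25 reads a library, and the 3 groups overlapped. With no filter, the differences were -0.12 for clone 1 and -0.04 for clone 19 (adjusted p = 0.25 and 0.68, limma). No difference was detected for Hp. Hpx, hemopexin, which binds free heme, did differ: it was 0.602 ± 0.151, 0.549 ± 0.136 and 1.68 ± 0.202 RPKM, a rise of 0.99 for clone 19 (adjusted p = 3.5e-05, limma) against -0.07 for clone 1 (adjusted p = 0.63, limma). The clones differed by 1.06 (adjusted p = 9.3e-05, limma). Hpx passed the filter only through its clone 19 libraries, since no parental or clone 1 library reached 1 RPKM.

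Of 32 acute-phase genes, Saa3 included, 10 were tested. In clone 1, 3 rose, 2 fell and 5 were not called (median -0.01), and in clone 19, 7 rose, 2 fell and 1 was not called (median 0.82). Between the clones, 6 were higher in clone 19, 0 were lower and 4 were not called. Of all tested genes, 39.8% rose and 32.6% fell in clone 1, and 36.7% and 32.3% in clone 19. Between the clones, 18.5% of all tested genes were higher in clone 19 and 24.5% lower. Hpx, which passed the filter only through clone 19, counts among those higher in clone 19 in both comparisons. Mt2, a metallothionein, went from 12.2 to 15.2 and 31.4 RPKM (0.30 and 1.33), and Cp, the ferroxidase ceruloplasmin, from 7.16 to 11.7 and 13.4 RPKM (0.67 and 0.85). Il1rn, the interleukin-1 receptor antagonist, rose in both clones, from 2.76 ± 0.275 to 10.1 ± 0.837 and 11 ± 0.597 RPKM (1.70 and 1.82), and the clones did not differ beyond their spread (0.12, adjusted p = 0.21, limma). Serpina3g, a serpin of the antichymotrypsin family, fell from 19.7 to 5.88 and 7.90 RPKM (-1.66 and -1.26). The liver forms Saa1 and Saa2 were at most 0.0561 and 0.112 RPKM in any library, and Fga, Fgb and Crp were listed at 0 in every library.

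Nos2 (Entrez 18126), inducible nitric oxide synthase, had the largest fall among the tested members. It measured 3.29, 3.26 and 3.06 RPKM in parental cells, 0.431, 0.376 and 0.486 RPKM for clone 1, with 0.435, 0.308 and 0.384 for clone 19. Its steps correspond to 580, 367 and 404 reads in parental libraries and to between 38 and 61 in the clones. The clones overlapped each other and were far below the parental libraries. The mean level was 7.43-fold lower in clone 1 and 8.52-fold lower in clone 19, and the log2 difference was -1.99 ± 0.08 and -2.08 ± 0.08 (adjusted p = 3.0e-09 and 2.4e-09, limma). The clones differed by -0.09 (95% confidence interval -0.27 to 0.09, adjusted p = 0.40, limma). With quantile normalization the difference between the clones was called (-0.23, adjusted p = 0.029, limma). Only the parental libraries of Nos2 reached 1 RPKM, so it was tested through the group where it was high. Lcn2, which was not tested, had a mean RPKM 9.18-fold lower in clone 1 and 4.14-fold lower in clone 19.

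Genes that feed nitric oxide synthesis went different ways. Slc7a2, the inducible transporter of arginine, fell from 4.11 ± 0.117 to 1.18 ± 0.120 and 1.43 ± 0.0997 RPKM (-1.46 and -1.26, adjusted p = 9.6e-09 and 3.5e-08, limma). Ass1, which rebuilds arginine from citrulline, fell from 1.63 to 0.908 and 0.723 RPKM (-0.60 and -0.82), and only its parental libraries reached 1 RPKM. Gch1, the first enzyme of tetrahydrobiopterin synthesis, gave -0.05 for clone 1 (adjusted p = 0.55, limma) and a rise of 0.41 for clone 19 (adjusted p = 0.00025, limma). Arg1, the arginase that competes for arginine, was listed at 0.120 to 0.409 RPKM. Of 34 innate defence genes, Nos2 included, 11 were tested: clone 1 had 3 higher, 4 lower and 4 not called (median -0.04), and clone 19 had 3 higher, 5 lower and 3 not called (median -0.07). Among all tested genes, 39.8% were higher and 32.6% lower in clone 1, and 36.7% and 32.3% in clone 19. Slpi, a secreted protease inhibitor with antimicrobial activity, rose from 14.1 to 23.9 and 31.5 RPKM (0.74 and 1.13), and Acod1, which makes itaconate, from 1.56 to 3.63 and 3.01 RPKM (1.01 and 0.77). Slc39a14, the zinc importer induced in the acute phase, fell from 5.84 to 4.08 and 3.76 RPKM (-0.47 and -0.57).

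**Figure D4:**
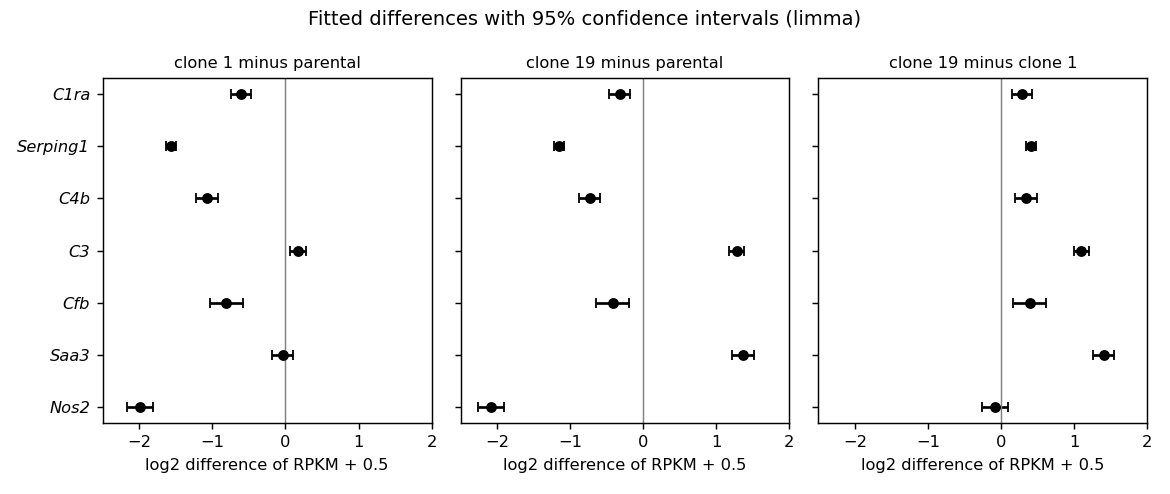
Fitted log2 differences (RPKM + 0.5) of the 7 tested genes, each clone against parental and then clone 19 against clone 1, with 95% confidence intervals from limma. Saa3 lies at -0.04 in the first panel and 1.36 in the second, and Nos2 near -2 in both, with -0.09 in the third.

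The cytokines, receptors and transcription factors that induce these genes went both ways, as did all tested genes. Of 43 listed, 36 were tested: clone 1 had 13 higher, 17 lower and 6 not called (median -0.03), and clone 19 had 12 higher, 16 lower and 8 not called (median -0.07). The shares over all tested genes were 39.8% higher and 32.6% lower in clone 1, and 36.7% and 32.3% in clone 19. Il6 rose from 3.70 to 6.14 RPKM in clone 1 and 4.57 RPKM in clone 19 (0.66 and 0.27), and Lif, a cytokine of the same family, from 5.96 to 12.3 and 11.3 RPKM (0.99 and 0.87). Of 4 tested receptor subunits for this family, 2 fell in both clones: Il6ra, for IL-6, from 1.89 to 0.735 and 0.765 RPKM (-0.96 and -0.92), and Osmr, for oncostatin M, from 9.96 to 4.96 and 4.18 RPKM (-0.94 and -1.16). Of Il6ra, only the parental libraries reached 1 RPKM. Il6st, the shared subunit gp130, rose from 52.6 to 61.9 and 60.8 RPKM (0.23 and 0.20), and Lifr, for LIF, gave 0.03 and -0.17 (adjusted p = 0.75 and 0.061, limma). Il1b and Tnf were at most 0.0231 and 0.0421 RPKM in any library. Of the C/EBP factors, Cebpb gave -0.01 and 0.08 (adjusted p = 0.84 and 0.19, limma), at means of 58.2, 57.7 and 61.3 RPKM, and Cebpd fell (-0.56 and -0.40). Nfkbiz, the nuclear co-factor of NF-kB needed for Lcn2 induction, fell from 21 ± 0.498 to 8.63 ± 0.242 and 10.3 ± 0.444 RPKM (-1.24 and -1.0, adjusted p = 3.9e-10 and 2.1e-09, limma). Nfkb1 rose in both (0.28 and 0.17), as did Irf1 (0.34 and 0.27), whereas Nfkbia, the feedback inhibitor, fell in clone 1 (-0.40) and gave 0.01 in clone 19 (adjusted p = 0.81, limma). Stat3 did not pass in either (-0.05 and 0.01, adjusted p = 0.090 and 0.76, limma).

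By level, the order in parental cells was Serping1, Saa3, C1ra, C3, C4b, Nos2, Cfb, Lcn2 and Hp, in which Nos2 and Cfb overlapped between libraries. In clone 1 it was Saa3, Serping1, C1ra, C3, C4b, Cfb, Nos2, Hp and Lcn2, with overlap of C4b with Cfb and of Nos2 with Hp. In clone 19 it was Saa3, Serping1, C3, C1ra, C4b, Cfb, Hp, Nos2 and Lcn2, with overlap of C4b with Cfb and of Nos2 with Lcn2. The other neighbours in each order did not overlap. For the 3 tested members whose group means ranged most (Nos2, Serping1 and Saa3), the most similar profiles were sought by Pearson correlation of log2 values over the 9 libraries, among 729 other genes whose group means ranged over at least 1. The points share libraries and fall into 3 groups, so these correlations describe group patterns and carry no test. Nos2 was nearest to Ptprm (a receptor tyrosine phosphatase, 0.999), Lhfpl2 (0.998) and Ctsk (cathepsin K, 0.998). Serping1 was nearest to Sox9 (a transcription factor, 0.999), Fgfr1 (a fibroblast growth factor receptor, 0.998) and Lgalsl (0.997). Saa3 was nearest to Cacna1g (a T-type calcium channel, 0.995), Pgc (the aspartic protease pepsinogen C, 0.987) and Mat2b (0.987), whose means were 59.3 RPKM in parental cells, 66.0 in clone 1 and 125 in clone 19.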

How the data were processed

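RNA sequencing was measured in 9 libraries, 3 each of parental YAMC cells and of 2 Cdk8 knockout clones. The authors deposited RPKM values for 28059 Entrez IDs. Per the submitters' processing notes, GSNAP, DESeq and build NCBIM37 were used; versions, annotation and the rule for counting reads are missing from the sources used here. IDs were named with RefSeq GRCm38.p6 (24998) and GENCODE M21 (16), and 3045 had no match; these tables gave names, gene order and sequences only. All 234 list entries matched.

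limma 3.58.1 (R 4.3.3) was run on log2(RPKM + 0.5) values, its prior variance following the mean, for 12568 genes of at least 1 RPKM in at least 3 libraries, in 1 model of group means, with Benjamini-Hochberg adjustment within a contrast. The script was checked on simulated data. Relative depth came from the most frequent step between libraries in low genes, and absolute depth from 377 genes with 1 annotated transcript (quartiles 42.3 and 44.2 megareads for parental replicate 1). Reads behind Lcn2, Hp and Nos2 were taken as whole multiples of the largest step that brought all 9 values within 0.08 of whole. Shared sequence was counted in stretches of 50 bases over GENCODE transcripts.

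The members and lists were chosen with earlier results of these data known. Named were the members, Cdk8, genes set by role, 3 genes most like each of 3 members, and the neighbours of C4b and Cfb. Also named were up to 3 further genes of each list called the same way in both clones, ranked by the smaller change. C1rl, C1s2, C1qa, C1qc, C8a, C8b, Fga, Fgb, Crp, Mt2, Il6st and Lifr were added after their values were seen. So were Cfp, Krt8, Krt18, Cdh1, Cd68, Csf1r, Col1a1, Dcn, Msln, Upk3b and Upk1b. A result for 1 gene set by role is not reported here. Alternatives were pseudocounts of 0.1 and 1, quantile normalization, no filter or one at 3 RPKM, subtraction of 50 neighbouring genes, median-ratio scaling, a replicate block, no trend, library weights from array quality, fits of only the 2 groups compared, and each library left out.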

Additional observations from a re-analysis of the deposited data

Results flagged for a closer look

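For 6 of the 7 tested genes the change from the parental line differed between the clones, by the contrast of clone 19 minus clone 1 in limma, in which 43.0% of all 12568 tested genes were called. On the log2 scale the change in clone 19 minus that in clone 1 was 1.40 for Saa3, 1.10 for C3, 0.41 for Serping1, 0.39 for Cfb, 0.34 for C4b and 0.29 for C1ra (adjusted p from 1.5e-07 to 0.010). For Saa3 the 3 clone 19 libraries were all above, and the 3 clone 1 libraries within, the parental range or just under it. For C3 both clones rose, and for Serping1, Cfb, C4b and C1ra both fell, less in clone 19. With 50 neighbouring genes subtracted, the differences of C4b (0.11) and Cfb (0.15) were no longer called (adjusted p = 0.28 for each, limma).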

How the results depend on the processing

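Each of the 7 tested genes kept its direction against the parental line in both clones, and its side of the threshold, under every alternative that could be run (20, or 19 for Cfb, which was not measured under the filter at 3 RPKM). Log2 differences ran from -0.11 to -0.01 for Saa3 and from 0.14 to 0.49 for C3 in clone 1, and from 1.28 to 1.46 and from 1.21 to 1.44 in clone 19. Nos2, a low gene in the clones, ran from -2.64 to -1.55 in clone 1 and from -2.80 to -1.61 in clone 19, the ends being the pseudocounts of 0.1 and 1. Between the clones, quantile normalization made Nos2 the 1 gene called lower in clone 19, and neighbour subtraction ended the calls of C4b and Cfb, leaving 4 higher; the cause was not tested. The filter at 3 RPKM left 4 genes lower in each clone, having fewer genes tested, and no filter gave 6, Lcn2 being added. No other alternative changed a call between the clones among the 7. Median-ratio scaling moved the median of all genes by -0.03 in clone 1 and -0.02 in clone 19. With the replicate number as a block, clone 1 had 1 higher and 5 lower of the 7, and clone 19 had 2 higher and 5 lower, so the block changed no call; same-numbered libraries correlated at -0.04 to 0.12 in their deviations, so the numbers were not taken to pair samples. Lcn2 and Hp rest on at most 32 reads a library.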

Other observations

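Some lowly expressed genes of the lists, singled out after their values were seen, differed between groups or within one. Masp1, a protease of the lectin pathway, was listed at 0.707, 0.772 and 0.659 RPKM in parental libraries, 0.0626, 0.0556 and 0.0462 in clone 1, and 0.0495, 0 and 0.0146 in clone 19. Wfdc2, a secreted protease inhibitor of mucosal epithelia, was listed at 0.385, 0.423 and 0.342 RPKM in clone 19 and at 0, 0 and 0.0427 in parental libraries, but at 0.4255 in clone 1 replicate 1 and 0 in the other clone 1 libraries. Epcam, an epithelial adhesion molecule, had the same split, at 0.251 RPKM in clone 1 replicate 1 and 0.0297 and 0 in replicates 2 and 3, with 0.131 to 0.215 in clone 19. The reads behind these low values were not estimated, and clone 1 replicate 1 had the lowest estimated depth, at 23.2 megareads. Saa3 measured 46.3 RPKM in clone 1 replicate 1, 49.7 and 49.2 in the other clone 1 libraries, and 113 to 138 in clone 19. Masp1, Wfdc2 and Epcam were below the level for testing, and what lay behind the split was not tested.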
